A study of Mus musculus with 15 samples.

Results

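The genes described here encode 9 enzymes that break down aromatic amino acids in the liver. They were chosen by symbol, 9 of 17527 genes in the deposited expression table: Tdo2, Afmid, Kmo, Kynu, Haao and Acmsd of the kynurenine pathway of tryptophan, and Tat, Hpd and Hgd of the tyrosine pathway. All 9 averaged at least 1 FPKM over the libraries and were tested. FPKM, fragments per kilobase of gene and depth of the library, is a level per length of gene.

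The samples were 15 mouse livers in 3 groups of 5. BBBPH mice, also labelled JDH, and model mice both received a high-fat high-sucrose diet with 60% of energy as fat, 20% as protein, 20% as carbohydrate, and 0.2% cholesterol, for 20 weeks. Their drinking water held 42 g/L of sugar, 55% sucrose and 45% fructose, a regimen used to induce nonalcoholic steatohepatitis, a fatty liver with inflammation. After 12 weeks, BBBPH mice were given 150 mg/kg of Biotransformed Bear Bile Powder by mouth every day, and model mice were given saline, while the diet went on. The diet and any dosing of the control mice are not stated, nor are the strain, sex and age of the animals, and 14 mice were dosed in all. BBBPH livers differ from control livers by the powder and by any difference in diet regimen, since that of control mice is not stated. The labels call each library a separate sample without naming its animal, so the p-values measure the spread between these samples.

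Tryptophan is degraded in the liver mostly along the kynurenine pathway. Tryptophan 2,3-dioxygenase (Tdo2) opens the indole ring, arylformamidase (Afmid) releases kynurenine, kynurenine 3-monooxygenase (Kmo) hydroxylates it, kynureninase (Kynu) cleaves off alanine, and 3-hydroxyanthranilate dioxygenase (Haao) opens the remaining ring. The product stands at a branch: left alone it closes to quinolinate, from which quinolinate phosphoribosyltransferase (Qprt) leads to NAD, while ACMS decarboxylase (Acmsd) diverts it to complete oxidation. Phenylalanine is turned into tyrosine first; tyrosine aminotransferase (Tat), 4-hydroxyphenylpyruvate dioxygenase (Hpd), homogentisate 1,2-dioxygenase (Hgd) and fumarylacetoacetase (Fah) then take tyrosine to fumarate and acetoacetate. Tat is a classical glucocorticoid-induced gene of the liver and has a daily rhythm.

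Defining hepatocyte genes were present in all libraries, as the liver label requires. Their summed level (Alb, Ttr, Apoa1, Apoa2, Fgb and transferrin) was 66279 to 76635 FPKM in BBBPH livers, 46503 to 67887 FPKM in model livers and 71068 to 80253 FPKM in control livers. Depth recovered from the FPKM was 35395712 to 39624160 fragments per library. Model 1_4 stood apart from its group over all genes: the recovered counts of its 4 pairs with other model libraries differed by a chi-square of 232 to 358 per gene, against at most 112 in any other pair of the same group. Other tissues showed in 2 libraries: the 5 pancreatic acinar markers summed to 2835 FPKM in BBBPH 2_2, against at most 26.6 FPKM in any other library, and the 4 skeletal muscle markers to 297 FPKM in control 2_1, against at most 1.83 FPKM elsewhere. Of the kidney tubule markers, Umod and Slc34a1 were at 0 in all 15 libraries and the largest sum was 0.0455 FPKM, which bears on Acmsd, since kidney also makes that enzyme. Fewer cells of a type and less RNA per cell cannot be told apart in these whole-liver values.

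The levels of the 9 genes spanned from Hpd, with a mean of 1381 FPKM in BBBPH, 1315 FPKM in model and 1569 FPKM in control livers, to Acmsd, with 1.97, 1.59 and 6.97 FPKM in the same 3 groups. In control livers the order by mean was Hpd, Tdo2, Tat, Hgd, Kmo, Haao, Afmid, Kynu and Acmsd, and the libraries of Tat and Hgd, of Kmo and Haao, and of Afmid and Kynu overlapped as neighbours. In BBBPH livers Hgd stood above Tat, and Tat, with 128 FPKM, stood beside Kmo, with 126 FPKM, the libraries of both pairs overlapping. Model livers put Kynu, with 34.8 FPKM, above Afmid, with 15.8 FPKM, and no library of either gene lay in the range of the other. The gene lengths behind the FPKM of Afmid and Tat leave their levels, and so their places in these orders, uncertain.

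**Figure D1:**
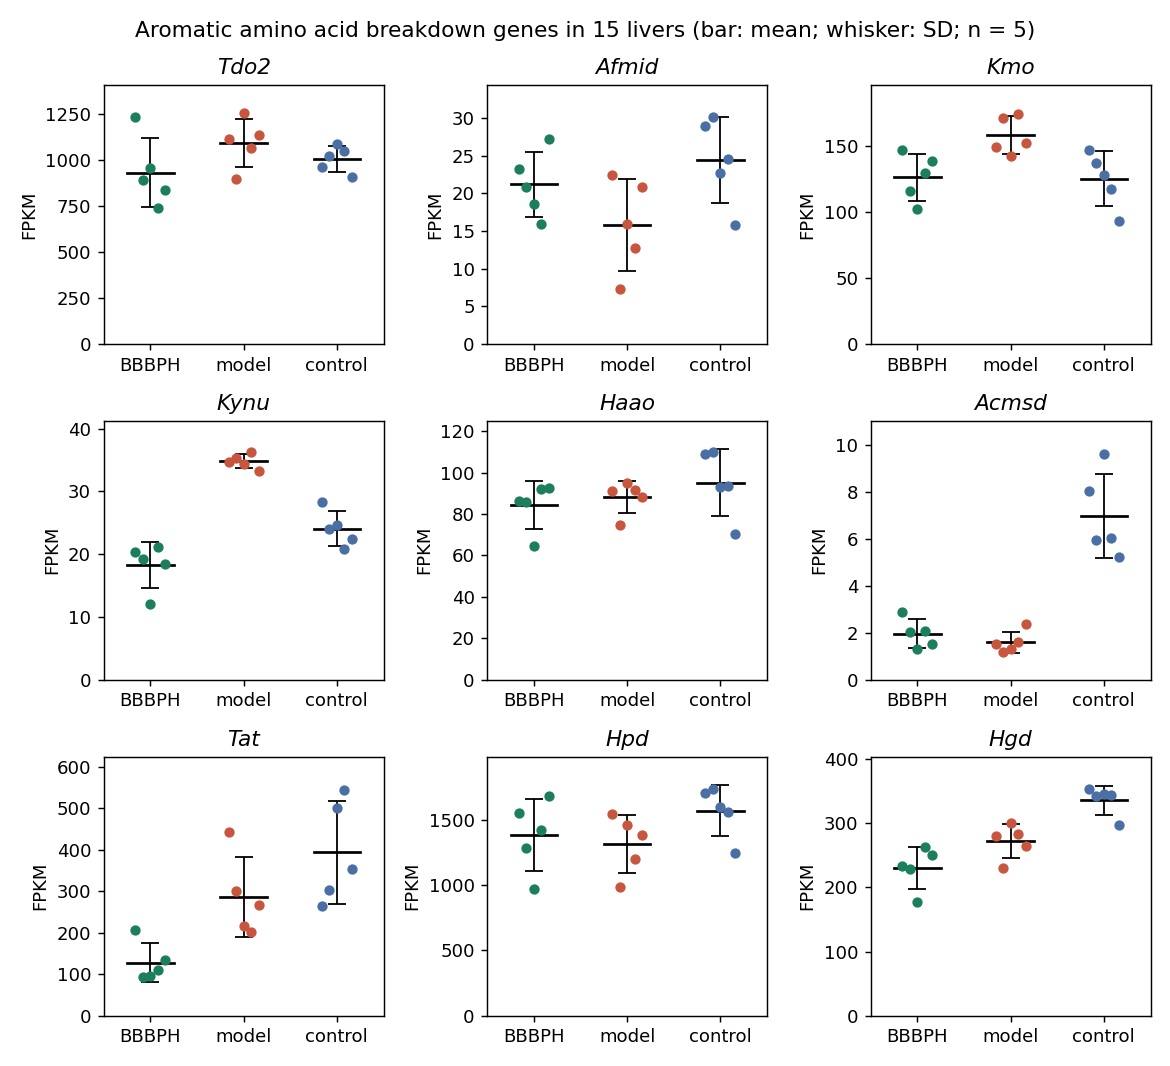
FPKM of the 9 genes (1 panel a gene, linear axis from 0) in BBBPH, model and control livers; points are libraries, bars group means and whiskers the SD (n = 5). Acmsd lay at 1.2 to 2.87 FPKM in BBBPH and model libraries, under all control libraries, Kynu at 33.2 to 36.3 FPKM in model libraries, above all others, and Tat at 93.8 to 206 FPKM in BBBPH libraries, under all control libraries.

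The first comparison sets model livers, after the diet, sugar water and saline, against control livers, whose diet and any dosing are not stated. Its differences therefore cannot be assigned to the diet alone. In model livers Acmsd fell to 0.229 of its control mean, Kynu and Kmo rose, and Hgd and Afmid fell, while Tdo2, Haao, Tat and Hpd did not pass the test. The test was limma, a linear model with moderated variances, on log2(FPKM + 1) over the 9575 genes whose mean reached 1 FPKM, and a gene was called at a Benjamini-Hochberg adjusted p under 0.05. Fold changes on this scale understate the change of genes with low FPKM. Of the 9 genes, 2 were called higher and 3 lower in model livers; of all genes tested, 38.6% were called, 29.9% higher and 8.64% lower. The median log2 fold change was -0.26 over the 9 genes and 0.12 over all genes tested.

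The second comparison, BBBPH against model, asks what the powder did under the same diet. Kynu fell to a mean of 18.3 FPKM in BBBPH livers, against 34.8 FPKM in model livers, and Tat to 128 FPKM, against 285 FPKM. The other 7 genes were not called, and limma called 0 of the 9 higher, at an unadjusted p under 0.05 as well as with voom on the recovered fragment counts. Among all genes 26.5% were called, 14.2% higher and 12.2% lower, so 2 of 9 is near the background. The median log2 fold change was -0.24 over the 9 genes and 0.02 over all genes tested.

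The third comparison, BBBPH against control, holds diet and powder together. Of the 9 genes 4 fell, Acmsd, Tat, Hgd and Kynu, and limma called 0 higher, at an unadjusted p under 0.05 and with voom as well. Among all genes 28.1% were called, 24.4% higher and 3.70% lower. The median log2 fold change was -0.20 over the 9 genes and 0.13 over all genes tested. Each group of libraries enters 2 of the 3 comparisons, so the comparisons are not independent of each other. Libraries of the groups compared did not overlap for 2 of the 9 genes in model against control, beside 23.9% of all genes, for 1 in BBBPH against model, beside 17.0%, and for 3 in BBBPH against control, beside 17.5%.

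The median over all genes lay above 0 against control, at 0.12 in model and 0.13 in BBBPH livers. Scaling each library by its median ratio brought both medians to 0.00 and the calls over all genes to 1618 higher and 1669 lower in model against control, beside 2865 and 827 without it, and to 781 higher and 879 lower in BBBPH against control, beside 2337 and 354. In BBBPH against model the calls over all genes were 1315 higher and 1329 lower with this scaling, beside 1364 and 1169 without it. Under that scaling 1 of the 9 genes was called higher and 3 lower in model against control, since Kmo was no longer called, 4 were lower in BBBPH than in model livers, and 4 lower in BBBPH than in control livers.

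**Figure D2:**
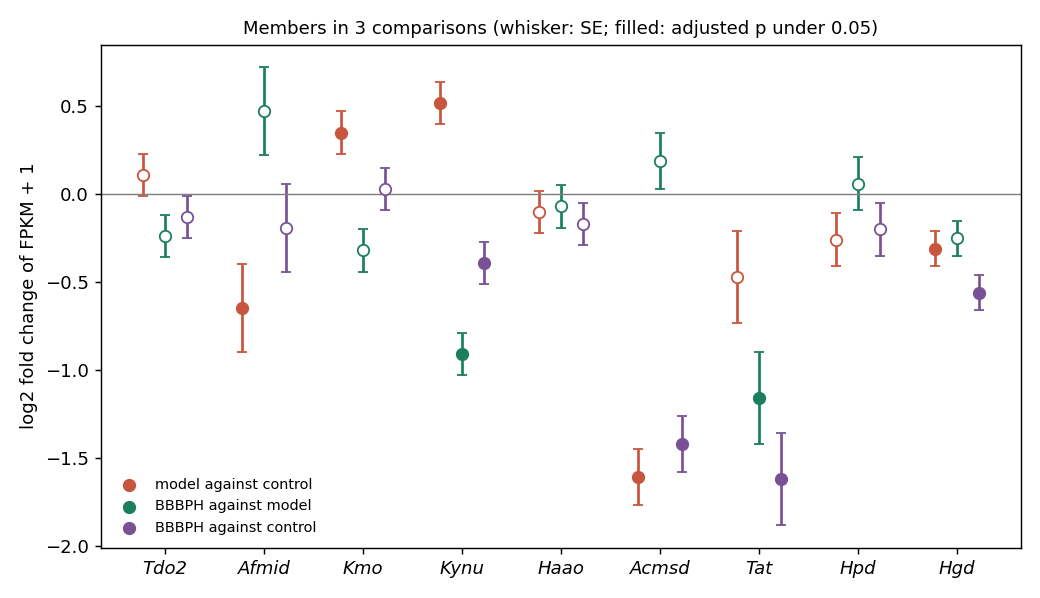
Log2 fold change of FPKM + 1 (vertical axis) of the 9 genes (horizontal axis) in the 3 comparisons; whiskers are the SE and filled points passed an adjusted p under 0.05 in limma. Acmsd and Tat reached -1.42 and -1.62 in BBBPH against control, and Kynu stood at 0.52 in model against control and -0.91 in BBBPH against model.

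Acmsd, Tat and Hgd were the 3 genes whose BBBPH libraries all lay under every control library, and the promoter windows of Tat and Hgd are shown because these genes moved together there. The windows are from RefSeq on GRCm38.p6, 250 bases before to 50 bases after the start of the gene, and capitals mark the motifs searched on both strands: the TATA box TATAAA, the CCAAT box, TGTTCT as part of glucocorticoid receptor sites, CAAAG as part of HNF4 sites, and also GTTAAT.
Tat, chr8:109990186-109990485, + strand: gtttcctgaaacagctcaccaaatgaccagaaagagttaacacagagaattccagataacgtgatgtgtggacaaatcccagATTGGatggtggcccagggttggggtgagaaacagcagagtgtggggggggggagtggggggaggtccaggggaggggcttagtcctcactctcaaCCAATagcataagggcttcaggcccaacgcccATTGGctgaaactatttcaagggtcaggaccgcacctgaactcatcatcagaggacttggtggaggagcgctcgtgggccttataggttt
Hgd, chr16:37579903-37580202, + strand: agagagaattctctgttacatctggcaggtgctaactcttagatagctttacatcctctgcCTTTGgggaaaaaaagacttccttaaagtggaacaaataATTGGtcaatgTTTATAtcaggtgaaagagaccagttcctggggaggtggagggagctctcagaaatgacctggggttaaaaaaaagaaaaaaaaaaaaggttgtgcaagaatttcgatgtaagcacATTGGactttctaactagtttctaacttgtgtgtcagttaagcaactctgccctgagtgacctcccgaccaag
The Tat window held CCAAT 3 times, with its first base 168 and 40 bases before the start on the opposite strand and 72 bases before it on the gene's strand. In the Hgd window CCAAT lay 150 and 23 bases, TATAAA 139 bases and CAAAG 189 bases before the start, all on the opposite strand. No base belonged to 2 motifs. TGTTCT and also GTTAAT were not in these windows, and sequence further from the start was not searched. Of 32851 mouse promoter windows of this length, 13.6% held TATAAA, 37.4% CCAAT, 7.1% GTTAAT, 19% TGTTCT and 53.9% CAAAG. Windows of 7 of the 9 genes, all but Kynu and Acmsd, were searched, and the motifs, in the same order, were in 2, 3, 1, 2 and 3 of them.

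Tdo2, the entry of the pathway, lies on chromosome 3 (GRCm38, 81957090 to 81976202). It had 737 to 1235 FPKM in BBBPH livers, 896 to 1254 FPKM in model livers and 910 to 1085 FPKM in control livers. The groups overlapped throughout, and limma gave log2 fold changes of 0.11 ± 0.12 (SE) for model against control, -0.24 ± 0.12 for BBBPH against model and -0.13 ± 0.12 for BBBPH against control (adjusted p 0.478, 0.153 and 0.429). Tdo2 in BBBPH against model passed the threshold without BBBPH 2_1, its highest BBBPH library (log2 fold change -0.35, adjusted p 0.0211), and with weights by library (-0.35, 0.0177). The related dioxygenases Ido1 and Ido2 open the same ring. Ido1 was at most 0.0591 FPKM in any library and was not tested, and Ido2 averaged 9.59 ± 2.2 FPKM in BBBPH, 8.09 ± 1.72 FPKM in model and 7.99 ± 2.73 FPKM in control livers (SD, n = 5 each) with no call.

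Afmid, the next step, lies on chromosome 11 (117825924 to 117839908). It had 23.3, 20.9, 18.6, 15.9 and 27.2 FPKM in BBBPH libraries 2_1, 2_2, 3_1, 3_2 and 3_4, against 22.4, 7.25, 16, 12.8 and 20.8 FPKM in model libraries 1_1, 1_4, 2_1, 2_3 and 3_4, and 29.0, 30.1, 22.7, 24.6 and 15.8 FPKM in control libraries 1_1, 1_5, 2_1, 2_2 and 3_4. Model 1_4 was the lowest of all 15, control 3_4 the lowest of its group, and the 3 groups overlapped. Model livers were lower than control livers by limma (log2 fold change -0.65 ± 0.25, adjusted p 0.0465), and the call was lost under 17 of 30 other settings, among them without model 1_4 (-0.42, adjusted p 0.107). Afmid exons share 1566 bases with Gm20708 on the same strand and 83 bases with Tk1 on the other, and the length behind its FPKM, 6444 bases, exceeds its 3539 bases of merged GENCODE exons. Its level is therefore uncertain.

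Kmo and Kynu act on kynurenine and 3-hydroxykynurenine in turn, and both rose in model livers. Kmo (chromosome 1, 175620381 to 175662116) had 147, 116, 102, 129 and 138 FPKM in BBBPH livers, 149, 171, 142, 174 and 152 FPKM in model livers and 147, 137, 128, 117 and 92.9 FPKM in control livers, in the library order given for Afmid. Only 1 model library, 2_1, lay inside the control range, and control 3_4 stood lowest of all. Kmo rose in model livers (log2 fold change 0.35 ± 0.12, limma adjusted p 0.0318), but not without control 3_4 (0.25, 0.0777), nor without control 2_2, model 1_4 or model 2_3 (0.31 to 0.33, 0.064 to 0.0766). For BBBPH against model the estimate was -0.32 ± 0.12 (0.0598), past the threshold under 7 of 30 other settings, and for BBBPH against control 0.03 ± 0.12 (0.886).

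Kynu (chromosome 2, 43555329 to 43682715) moved in all 3 comparisons. It had 20.4, 19.3, 12.1, 21.2 and 18.5 FPKM in BBBPH livers, 34.7, 35.3, 34.4, 36.3 and 33.2 FPKM in model livers and 28.3, 24.1, 24.7, 20.9 and 22.4 FPKM in control livers. The model libraries lay close together and above every other library, and 1 BBBPH library, 3_2, reached into the control range. Kynu rose in model livers (log2 fold change 0.52 ± 0.12, limma adjusted p 0.00341) and fell in BBBPH livers against model (-0.91 ± 0.12, 8.23e-05). BBBPH livers were also lower than control livers (-0.39 ± 0.12, 0.0244), a call lost without control 1_1 (-0.33, 0.0626) and under 5 of 30 other settings in all, among them the fit of these 2 groups alone (estimates -0.55 to -0.24, adjusted p up to 0.175). The first 2 calls held under all 30 other settings.

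The ratio of Kmo to Kynu put the 2 genes on 1 scale within each library. It was 6.03 to 8.45 in BBBPH livers, 4.13 to 4.86 in model livers and 4.15 to 5.67 in control livers. BBBPH libraries did not overlap with either of the other groups. The mean log2 ratio was 0.59 higher in BBBPH than in model livers and 0.42 higher than in control livers (exact 2-sided permutation test, p = 0.00794 for each, the smallest this design allows, and 0.0119 adjusted over the 9 ratio tests). Between model and control livers it differed by -0.17 (exact permutation p = 0.111, adjusted 0.143), and without control 3_4 by -0.25, which passed.

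In bulk liver, macrophages also carry Kmo and Kynu transcripts. The 9 macrophage markers summed to 309 to 611 FPKM in BBBPH, 295 to 488 FPKM in model and 256 to 366 FPKM in control livers. Model livers were higher than control livers in 3 of them, Cd68, Trem2 and Gpnmb, and in 5 of the 6 stellate cell and fibroblast markers, which summed to 144 to 162 FPKM in BBBPH, 158 to 196 FPKM in model and 123 to 152 FPKM in control livers. In BBBPH against model, Trem2 and Gpnmb fell and Marco rose. The part of these cells in the Kynu and Kmo values was not tested.

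Haao lies on chromosome 17 (83831156 to 83847963) and passed in no comparison. It averaged 84.2 ± 11.6 FPKM in BBBPH, 88.3 ± 7.84 FPKM in model and 95.2 ± 16.1 FPKM in control livers (SD, n = 5 each). Log2 fold changes were -0.10 ± 0.12, -0.07 ± 0.12 and -0.17 ± 0.12 for model against control, BBBPH against model and BBBPH against control (limma adjusted p 0.562, 0.7 and 0.317). BBBPH 3_1, at 64.4 FPKM, stood apart from the other 4 BBBPH libraries at 86 to 92.6 FPKM.

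Acmsd, which diverts the Haao product away from NAD, had the largest log2 fold change of the 9 genes in model against control. It lies on chromosome 1 (127729413 to 127767978). Its level was 2.87, 2.03, 1.33, 2.08 and 1.53 FPKM in BBBPH livers, against 1.52, 1.2, 1.3, 1.59 and 2.36 FPKM in model livers and 8.02, 5.95, 9.6, 6.04 and 5.24 FPKM in control livers. Every control library lay above every other library, while BBBPH and model libraries overlapped. These levels rest on 112 to 253 fragments in BBBPH, 102 to 197 fragments in model and 427 to 800 fragments in control libraries.

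The mean of model livers was 0.229 of the control mean, with a log2 fold change of -1.61 ± 0.16 in limma (adjusted p 7.58e-06), and -2.06 with a pseudocount of 0.1. BBBPH livers had 0.283 of the control mean (-1.42 ± 0.16, 8.91e-05). Against model livers the BBBPH estimate was 0.19 ± 0.16 (0.416), so a difference between the 2 diet groups was not detectable here. Both calls against control held under every other setting that tested the gene; a minimum mean of 5 FPKM left it out. Acmsd exons overlap 94 bases of 2900009J06Rik on the opposite strand, and whether the counting used strand is not stated.

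Qprt, the enzyme of the other branch, was not called in any comparison by limma, but passed under 2 of 30 other settings in BBBPH against control (adjusted p down to 0.026) and in BBBPH against model (down to 0.0331), without BBBPH 3_1 being 1 of the 2. It averaged 112 ± 19.5 FPKM in BBBPH, 91.2 ± 12.3 FPKM in model and 90.1 ± 15.1 FPKM in control livers (SD, n = 5 each). The ratio of Acmsd to Qprt was 0.013 to 0.0255 in BBBPH livers, 0.0117 to 0.0317 in model livers and 0.0579 to 0.107 in control livers. Both diet groups lay wholly under the control group. The mean log2 ratio of FPKM + 1 differed by -1.63 for model against control and by -1.73 for BBBPH against control (exact permutation p = 0.00794 for each, 0.0119 adjusted). For BBBPH against model it differed by -0.10 (exact permutation p = 0.635, adjusted 0.635).

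**Figure D3:**
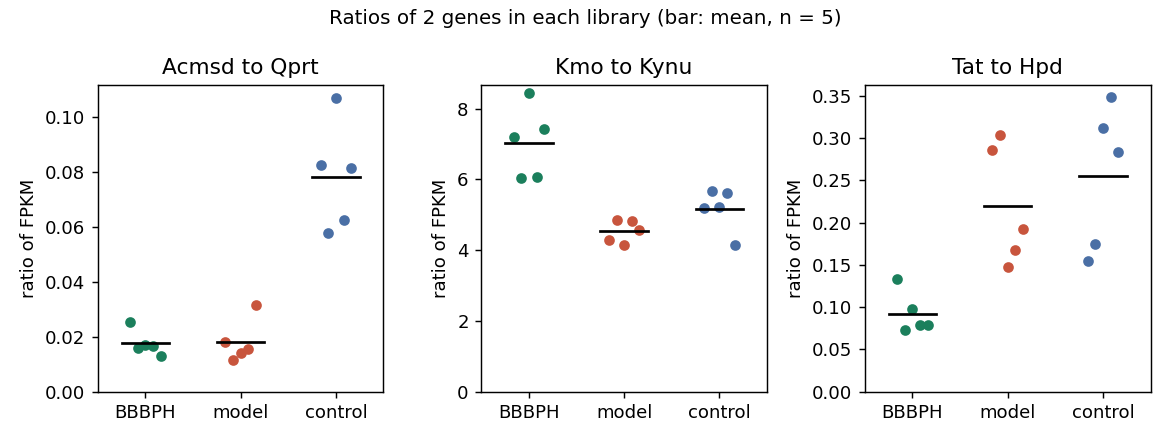
FPKM ratios of Acmsd to Qprt, Kmo to Kynu and Tat to Hpd (vertical axes from 0) in each BBBPH, model and control library, with the group mean as a bar. The Acmsd to Qprt ratio was at most 0.0317 in both diet groups and at least 0.0579 in control libraries, and the other 2 ratios set the BBBPH libraries apart, Kmo to Kynu at least 6.03 and Tat to Hpd at most 0.133.

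Tat, the first step of tyrosine breakdown, lies on chromosome 8 (109990437 to 109999803) and fell in BBBPH livers. It had 206, 93.8, 95, 111 and 133 FPKM in BBBPH livers, 442, 300, 215, 201 and 266 FPKM in model livers and 265, 302, 499, 544 and 353 FPKM in control livers. Only BBBPH 2_1 reached the model range, and no BBBPH library reached the control range. BBBPH livers had 0.449 of the model mean (log2 fold change -1.16 ± 0.26, limma adjusted p 0.00388) and 0.325 of the control mean (-1.62 ± 0.26, 0.000716). For model against control the estimate was -0.47 ± 0.26 (0.163), with wide spread in both groups. With weights by library this comparison passed (-0.68, limma adjusted p 0.0335). The length behind the FPKM of Tat, 3216 bases, exceeds its 2405 bases of merged GENCODE exons. As with Afmid, its level is therefore uncertain, and so is the level of its ratio to Hpd.

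Hpd, the next step and the most abundant of the 9 transcripts, lies on chromosome 5 (123171807 to 123182727). It had 970 to 1685 FPKM in BBBPH livers, 988 to 1544 FPKM in model livers and 1247 to 1732 FPKM in control livers. The groups overlapped, and log2 fold changes were -0.26 ± 0.15 for model against control, 0.06 ± 0.15 for BBBPH against model and -0.20 ± 0.15 for BBBPH against control (limma adjusted p 0.18, 0.79 and 0.336). The ratio of Tat to Hpd was 0.073 to 0.133 in BBBPH livers, 0.148 to 0.304 in model livers and 0.155 to 0.349 in control livers. Its mean log2 differed by -1.22 for BBBPH against model and by -1.42 for BBBPH against control (exact permutation p = 0.00794 for each, 0.0119 adjusted), and differed by -0.20 between model and control livers (exact permutation p = 0.508, adjusted 0.571).

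Hgd (chromosome 16, 37580153 to 37632020) opens the ring of homogentisate and fell against control in both diet groups. It had 233, 229, 177, 263 and 250 FPKM in BBBPH livers, 280, 231, 301, 284 and 264 FPKM in model livers and 353, 342, 346, 344 and 297 FPKM in control livers. No BBBPH library reached the control range, while model 2_1 passed control 3_4. Hgd fell in model livers (log2 fold change -0.31 ± 0.10, limma adjusted p 0.0258) and in BBBPH livers against control (-0.56 ± 0.10, 0.00159), and for BBBPH against model the estimate was -0.25 ± 0.10 (0.0824). The model call was lost without control 1_1, control 2_2 or model 1_4 (-0.25 to -0.30, adjusted p 0.0511 to 0.0604). Without model 1_4 the comparison of BBBPH with model passed (-0.31, 0.0365).

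Some libraries were low for several of the 9 genes at once. Control 3_4 was the lowest control library for 7 genes, model 1_4 the lowest model library for 6 and BBBPH 3_1 the lowest BBBPH library for 6. Haao, Acmsd, Hpd and Hgd were lowest in all 3 of these libraries. The summed hepatocyte markers were the lowest of their group in BBBPH 3_1, at 66279 FPKM, and in model 1_4, at 46503 FPKM, and the highest of all libraries in control 3_4, at 80253 FPKM. The sum was thus low where the genes were low in BBBPH 3_1 and model 1_4, and not in control 3_4. In the model group both the hepatocyte sum and Hgd, Afmid and Acmsd were lower than in control, Alb and Apoa1 being the 2 of 6 hepatocyte markers called lower. Alb, the largest part of the sum, had 0.702 of its control mean. Apoa1 had 0.771, transferrin 0.91, Ttr 0.992, Fgb 1.15 and Apoa2 1.17 of theirs, so the markers did not all fall. The part of the lower hepatocyte sum in the 3 genes was not tested.

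**Figure D4:**
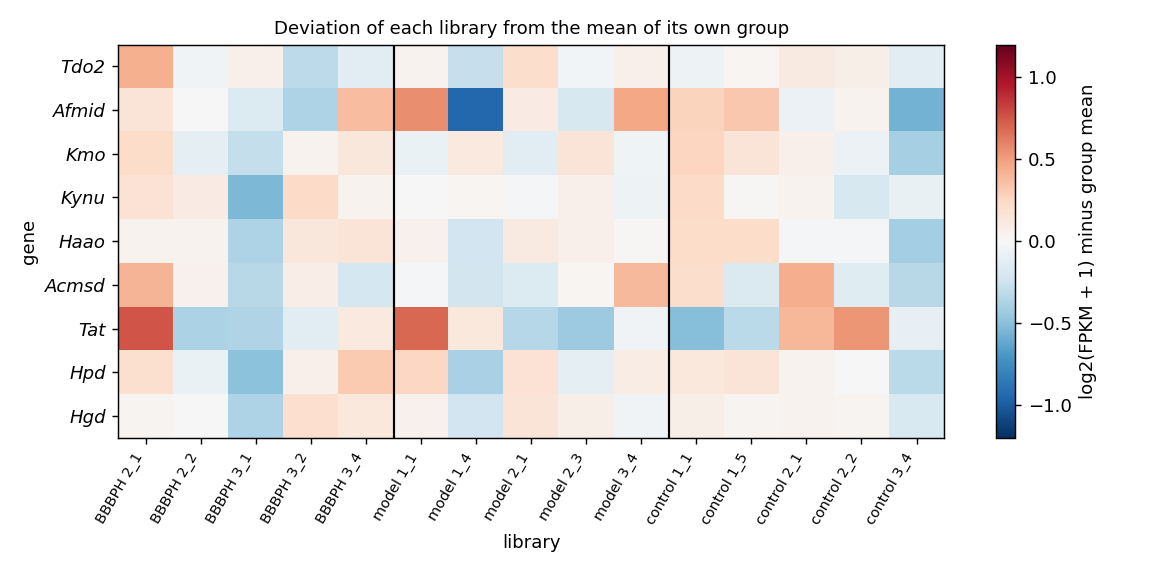
Log2(FPKM + 1) of the 9 genes (rows) in each library (columns) minus the mean of the library's own group; blue is below and red above the group mean. Control 3_4, model 1_4 and BBBPH 3_1 show columns that are mostly blue, being lowest in their groups for 7, 6 and 6 of the 9 genes.

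The other genes of the kynurenine and NAD pathways were called in both directions. Of 17 listed genes 15 were tested, with 3 higher and 2 lower in model against control, 2 higher and 3 lower in BBBPH against model, and 1 in each direction in BBBPH against control. Their median log2 fold changes were 0.07, 0.02 and 0.08 in these comparisons, near the 0.12, 0.02 and 0.13 of all genes tested. For this list and those below, the background is 29.9% of all genes called higher and 8.64% lower in model against control. The shares were 14.2% and 12.2% in BBBPH against model, and 24.4% and 3.70% in BBBPH against control. Kyat1, a kynurenine aminotransferase that makes kynurenic acid, fell as Acmsd did. It averaged 23.8 ± 2.18 FPKM in BBBPH, 20.8 ± 1.25 FPKM in model and 33.8 ± 3.61 FPKM in control livers (SD, n = 5 each), lower in model (log2 fold change -0.67 ± 0.08, limma adjusted p 2.77e-05) and in BBBPH livers (-0.49 ± 0.08, 0.000823) than in control. Ddc, aromatic amino acid decarboxylase, averaged 5.46 ± 3.03 FPKM in BBBPH, 20.6 ± 4.87 FPKM in model and 6.55 ± 1.79 FPKM in control livers. It rose in model livers (1.52 ± 0.25, 0.000284) and fell in BBBPH livers against model (-1.82 ± 0.25, 0.000103).

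Genes that make NAD by other routes moved too. Nampt, which salvages nicotinamide, averaged 35.8 FPKM in BBBPH, 23.1 FPKM in model and 32.7 FPKM in control livers, falling in model livers (log2 fold change -0.51, limma adjusted p 0.00602) and rising in BBBPH livers against model (0.63, 0.00222). Nadsyn1, NAD synthetase, rose in BBBPH livers against model (0.55, 0.0075). Naprt, which starts NAD synthesis from nicotinic acid, rose by 0.28 in model (0.00573) and 0.23 in BBBPH livers (0.0213) against control. Both Naprt calls were lost with median-ratio and with quantile scaling, and over the 30 other settings the estimates went down to 0.14 in model (adjusted p up to 0.146) and 0.08 in BBBPH livers (up to 0.488).

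Around the tyrosine pathway 12 of 13 listed genes were tested. Pcbd1 and Got2 were higher and Gch1 and Got1 lower in model livers against control, none was called in BBBPH against model, and Gch1 and Got1 were lower in BBBPH livers against control. The last call of Got1 (log2 fold change -0.68, limma adjusted p 0.0435) was lost under 15 of 30 other settings (-0.84 to -0.16, adjusted p up to 0.593), among them the fit of these 2 groups alone. That of Got2 in model against control (0.27, 0.0203) was lost under 2 of 30, median-ratio scaling among them (estimates down to 0.13, adjusted p up to 0.225). In BBBPH against model 1 of the 12 was higher and 0 lower at an unadjusted p under 0.05, and voom also called 0. Median log2 fold changes of the 12 were 0.06, 0.01 and 0.10 in the 3 comparisons. Gch1, the first enzyme in making tetrahydrobiopterin, fell by 0.45 in model and 0.54 in BBBPH livers on the log2 scale (limma adjusted p 0.00692 and 0.00454). Fah, the last step, averaged 395 ± 41.6 FPKM in BBBPH, 355 ± 36.3 FPKM in model and 370 ± 44.7 FPKM in control livers (SD, n = 5 each), with no call.

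**Figure D5:**
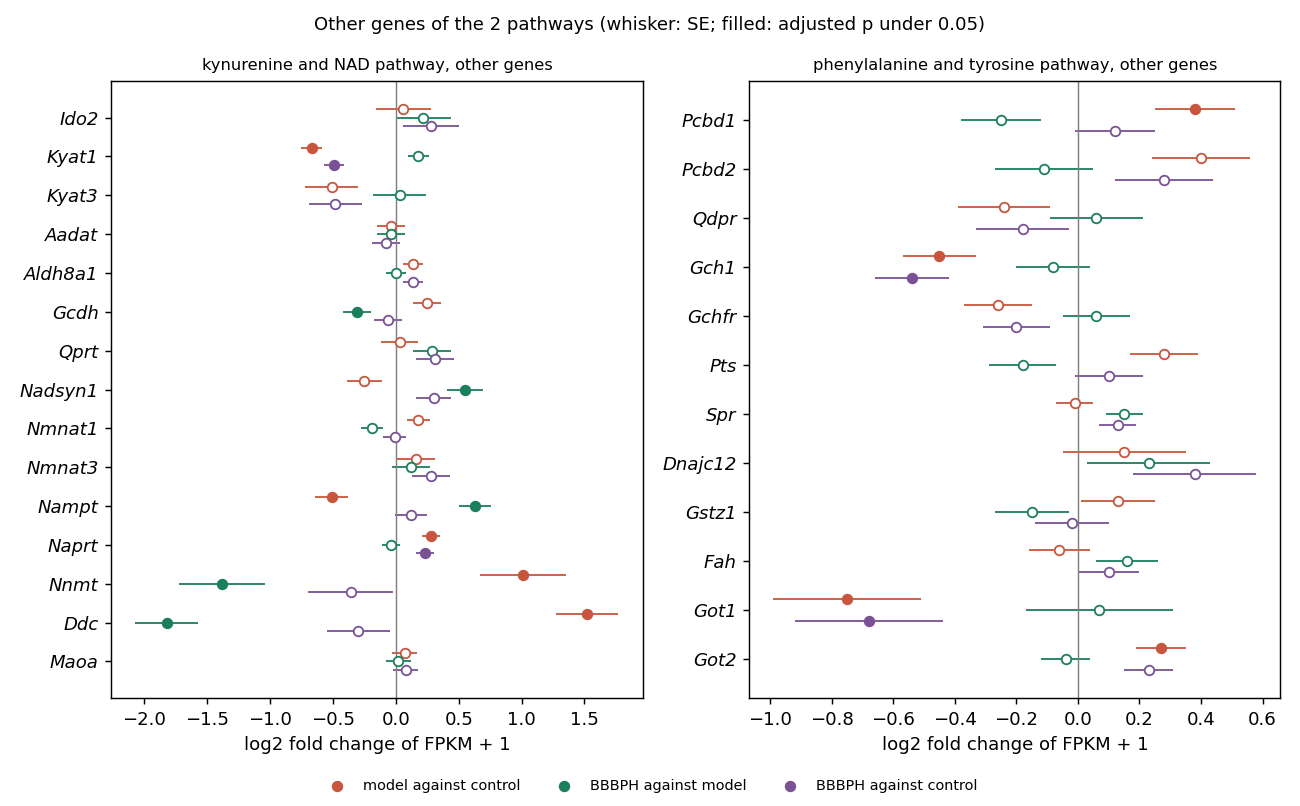
Log2 fold changes of FPKM + 1 (horizontal axes) of the other tested genes of the kynurenine and NAD pathways (left) and the phenylalanine and tyrosine pathway (right); whiskers are the SE and filled points passed an adjusted p under 0.05 in limma. Ddc stands at 1.52 in model against control and -1.82 in BBBPH against model, and in the right panel no point of BBBPH against model is filled.

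Aromatic amino acid transporters split by gene. Of 7 listed, 6 were tested, with 2 higher and 1 lower in model against control, 2 and 2 in BBBPH against model, and 1 and 1 in BBBPH against control. Their medians were 0.00, 0.00 and 0.15. Slc16a10, which carries aromatic amino acids out of the hepatocyte, averaged 12.5 ± 1 FPKM in BBBPH, 17.5 ± 1.46 FPKM in model and 18.7 ± 2.75 FPKM in control livers and fell in BBBPH livers against both (log2 fold change -0.45 and -0.53, limma adjusted p 0.00248 and 0.00129). Slc43a1, a transporter of large neutral amino acids, averaged 2.1 FPKM in BBBPH, 0.51 FPKM in model and 1.44 FPKM in control livers, lower in model livers than in control (-0.69, 0.00117) and higher in BBBPH than in model livers (1.04, 8.11e-05). Slc43a2 was higher in BBBPH livers than in model (0.31, 0.0169) and control livers (0.33, 0.0138). Each of these calls was lost under 4 of 29 other settings, the first without model 1_4 and BBBPH 2_2 (estimates down to 0.23, adjusted p up to 0.434) and the second with median-ratio and quantile scaling (down to 0.17, up to 0.282).

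Enzymes that break down other amino acids, 28 listed and tested, were called in both directions. In model livers 7 were higher and 1 lower than in control, beside 29.9% and 8.64% of all genes tested. In BBBPH livers limma called 0 higher than in model (2 at an unadjusted p under 0.05, 0 with voom) and 9 lower, beside 14.2% and 12.2% of all genes, namely Hal, Amdhd1, Gldc, Amt, Hibadh, Mccc1, Cth, Cbs and Oat. Against control 1 was higher and 4 were lower in BBBPH livers, beside 24.4% and 3.70%, and the medians of the 3 comparisons were 0.06, -0.09 and -0.04. Like Kynu, Cbs, which makes cystathionine, Amt of the glycine cleavage system and Oat, ornithine aminotransferase, rose in model livers and fell in BBBPH livers against model. Cbs averaged 68.3 FPKM in BBBPH, 130 FPKM in model and 84.4 FPKM in control livers (log2 fold change 0.63, limma adjusted p 0.000876, for model against control and -0.93, 6.4e-05, for BBBPH against model). Amt averaged 15 FPKM in BBBPH, 29.7 FPKM in model and 11.4 FPKM in control livers (1.30, 9.21e-06, and -0.96, 0.000145). Oat averaged 251 FPKM in BBBPH, 621 FPKM in model and 360 FPKM in control livers (0.78, 0.00486, and -1.30, 0.000187). Cth, which cleaves cystathionine, had the pattern of Tat, with 83.5 FPKM in BBBPH, 169 FPKM in model and 181 FPKM in control livers (-1.14, 0.000469, for BBBPH against control).

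Genes that glucocorticoids induce, as they do Tat, did not move as one. Of 12 tested, 3 were higher and 2 lower in model against control, beside 29.9% and 8.64% of all genes tested. In BBBPH against model 1 was higher and 5 were lower, beside 14.2% and 12.2%. In BBBPH against control 1 was higher and 4 were lower, beside 24.4% and 3.70%. The medians of the 12 were -0.13, -0.46 and -0.42, beside 0.12, 0.02 and 0.13 over all genes. Per1, a clock gene, Pck1, of gluconeogenesis, Errfi1 and Dusp1 were the 4 that fell in BBBPH livers against control, and Fkbp5 rose. In BBBPH against model Per1, Klf9, Zbtb16, Errfi1 and Cdkn1a fell and G6pc rose. Zbtb16 changed by -2.21, Cdkn1a by -2.71 and G6pc by 2.10 on the log2 scale (limma adjusted p 6.88e-05, 0.000806 and 0.00143). Per1 averaged 1.67 ± 0.64 FPKM in BBBPH, 3.04 ± 0.958 FPKM in model and 3.8 ± 0.727 FPKM in control livers (SD, n = 5 each; log2 fold change -0.87, limma adjusted p 0.00311, for BBBPH against control). Nr3c1, the glucocorticoid receptor, averaged 11.1 ± 1.13 FPKM in BBBPH, 9.23 ± 1.05 FPKM in model and 10 ± 1.1 FPKM in control livers, with no call. It passed in BBBPH against model with quantile scaling, with library weights and without BBBPH 2_1 (adjusted p down to 0.0236), and in model against control with median-ratio and quantile scaling (down to 0.0372). Dbp, a factor with a strong daily rhythm, ranged over 3.51 to 52.1 FPKM in BBBPH, 6.03 to 32.1 FPKM in model and 14.6 to 38.3 FPKM in control livers, with no call. The hour of sampling is not stated, and its part in the Tat values was not tested.

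Of 11 liver transcription factors, limma called 0 higher and 1 lower in model against control, 3 and 3 in BBBPH against model, and 3 and 3 in BBBPH against control, with median log2 fold changes of -0.11, 0.13 and -0.35. In model against control 0 were higher at an unadjusted p under 0.05, and voom also called 0 higher. Hnf4a, a main regulator of hepatocyte genes, averaged 134 ± 20.7 FPKM in BBBPH, 193 ± 7.58 FPKM in model and 172 ± 21.9 FPKM in control livers (SD, n = 5 each). Hnf4a fell in BBBPH livers against model (log2 fold change -0.54 ± 0.10, limma adjusted p 0.00147) and against control (-0.36 ± 0.10, 0.0183). Foxa3, a forkhead factor, averaged 17.5 ± 3.44 FPKM in BBBPH, 28.2 ± 3.07 FPKM in model and 36.5 ± 8.14 FPKM in control livers, the order of Tat, and fell in BBBPH livers against both (-0.67, 0.00337, and -1.01, 0.00041). Prox1, Ppara and Cebpa were the 3 that rose in BBBPH livers against both. Prox1, a homeobox factor, averaged 20.5 ± 6.6 FPKM in BBBPH, 9.92 ± 2.01 FPKM in model and 9.5 ± 2.59 FPKM in control livers (0.94, 0.00361, and 1.01, 0.00318). Ppara, a nuclear receptor of fatty acid oxidation, averaged 53 ± 5.07 FPKM in BBBPH, 37 ± 5.47 FPKM in model and 36.8 ± 5.41 FPKM in control livers (0.51, 0.00416, and 0.53, 0.00473). The BBBPH libraries of both genes lay above all others.

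Kynurenine and kynurenic acid are ligands of the aryl hydrocarbon receptor, Ahr. Of 8 listed genes of this receptor and its targets 5 were tested, with 2 higher and 1 lower in model against control, 2 higher and 2 lower in BBBPH against model, and 1 higher in BBBPH against control. The medians were 0.12, -0.11 and 0.12. Ahr itself averaged 4.64 ± 1.63 FPKM in BBBPH, 11.3 ± 3.99 FPKM in model and 4.15 ± 1.3 FPKM in control livers, rising in model livers (log2 fold change 1.23 ± 0.24, limma adjusted p 0.00118) and falling in BBBPH livers against model (-1.11 ± 0.24, 0.00333). The targets did not move as one. Nqo1 moved as Ahr did, with 2.77 ± 0.659 FPKM in BBBPH, 4.7 ± 1.34 FPKM in model and 1.98 ± 0.725 FPKM in control livers (0.93, 0.00106, for model against control and -0.58, 0.0269, for BBBPH against model). Cyp1a2 went the other way, with 205 ± 45.8 FPKM in BBBPH, 133 ± 18.6 FPKM in model and 212 ± 24.6 FPKM in control livers (-0.66, 0.00227, for model against control and 0.59, 0.00666, for BBBPH against model). The targets Cyp1a1 and Cyp1b1 were under the minimum for testing.

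Across the 15 libraries, the gene whose log2(FPKM + 1) was most like that of Acmsd was Kyat1 (Pearson r 0.95), like Tat the heat-shock gene Hspa1a (0.93), like Kynu Acat3 (0.91), like Hgd Gnmt (0.91) and like Kmo Them7 (0.91). For Haao it was Mdh1 (0.95), for Hpd Ivd (0.94), for Afmid Dbt (0.90) and for Tdo2 Fam220a (0.88). These are the highest of the tested genes that were ranked, share their libraries and include the group differences. Picking the highest of so many genes over 15 libraries raises r by itself, and how far was not tested. The other enzymes described here and genes with Gm, Rik, clone or accession symbols were left out of the ranking. The same holds for the ranking with group means taken out, so a gene left out may be more alike. With group means taken out, the highest were Dact2 for Acmsd (0.87), Alg2 for Tat (0.77), Galt for Kynu (0.85), Cog4 for Hgd (0.92), S100a10 for Kmo (0.92), Parl for Haao (0.98), Gnmt for Hpd (0.93), Cyp2c50 for Afmid (0.92) and Fam220a for Tdo2 (0.85).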

How the data were processed

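RNA came from 15 mouse livers (TRIzol extraction, VAHTS Universal V6 library kit), per the labels' protocols. The submitters' processing notes list mm10 as the build and DESeq2, fastp, HISAT2 and HTSeq as tools, with no versions or roles; annotation and strand setting are not given in the sources used here. The authors deposited FPKM, with 1 value per gene and library, in a series table and 15 single files that held equal values. Libraries were grouped by their labels, and none was left out of the tests reported first.

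The 9 genes and the 7 other gene lists were chosen with earlier results of these data known. The 9575 genes whose mean reached 1 FPKM entered limma 3.58.1 (R 4.3.3) on log2(FPKM + 1), with 3 group means over 15 libraries (12 residual degrees of freedom), eBayes with trend, 2-sided, and Benjamini-Hochberg adjustment within each comparison over all genes tested; the procedure was tested on simulated data. Log2 ratios of 2 genes were compared by exact permutation over all 252 arrangements (Python 3.11.15, numpy 2.4.6). Named from the other lists were the called genes with the 3 smallest adjusted p in each comparison, plus Ido2, Qprt, Fah and Nr3c1. Not all of them are described, and Dbp, Cyp1a1, Cyp1b1, Dusp1, Fkbp5, Ppara and Cebpa were named after their values were seen. Ido1, Pcbd1, Hal, Amdhd1, Gldc, Hibadh, Mccc1 and Klf9 were also named outside this rule. Some items are not reported here.

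The deposited values came out as whole counts divided by a length and a depth, so depth and fragment counts were recovered from them: lengths were found for 15824 of 17527 genes, with values within 0.02 of a whole number, and 1 fragment in a gene of 1 kilobase was worth 0.0252 to 0.0283 FPKM. No library was a copy of another: the 105 pairs differed by a chi-square of 31.2 to 475 per gene, far above counting noise. Alternatives were other pseudocounts, filters, scalings, spread estimates and weights, a 2-group fit, voom on the recovered counts, replicate blocks, and leaving out libraries. Positions are from GENCODE M21 (GRCm38) and promoter windows from RefSeq (GRCm38.p6).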

Additional observations from a re-analysis of the deposited data

Results flagged for a closer look

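Among 138 groups of 5 values (46 named genes), 10 held a library far from the other 4 by Dixon's test, where chance gives about 1 in 20. Of the 9 genes, 2 were among them: Haao had 64.4 FPKM in BBBPH 3_1, against 86 to 92.6 FPKM in the other BBBPH libraries, and Hgd had 297 FPKM in control 3_4, against 342 to 353 FPKM in the other control libraries.

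In control 3_4, Gls2 had 121 FPKM (others 147 to 157 FPKM) and Cdkn1a 2.58 FPKM (0.936 to 1.21 FPKM). BBBPH 3_1 had Fah at 324 FPKM (403 to 434 FPKM) and Slc43a2 at 2.49 FPKM (1.98 to 2.04 FPKM). BBBPH 2_1, the highest BBBPH library for Tat, had Cdkn1a at 10 FPKM (0.376 to 0.73 FPKM) and Zbtb16 at 3.16 FPKM (0.296 to 0.962 FPKM). Errfi1 had 413 FPKM in BBBPH 3_4 (96.1 to 167 FPKM), and Fah had 292 FPKM in model 1_4 (358 to 379 FPKM).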

How the results depend on the processing

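Under the 30 other settings, Acmsd against control in both diet groups (29 settings) and Kynu in model against control and BBBPH against model kept direction and call. Among the 9 genes, 5 were called in model against control, 3 with no filter, 2 without model 1_4 and BBBPH 2_2, 2 without these and control 2_1, and 2 to 5 with 1 library left out (2 without control 2_2 or model 1_4, 3 without control 1_1 or model 2_3). In BBBPH against model 2 were called, 4 with median-ratio and 4 with quantile scaling, 5 with library weights, and 2 to 4 with 1 library left out (4 without BBBPH 2_1). A minimum mean of 5 FPKM tested fewer genes and called 2259, 1634 and 1502 genes in model against control, BBBPH against model and BBBPH against control, where the last comparison gave 1660 with median-ratio and 1540 with quantile scaling. The same replicate number did not pair libraries: deviations of the 8 such pairs correlated between -0.39 and 0.084. With that number as a block, calls were 2, 1 and 1 among the 9 genes and 1315, 305 and 185 among all genes in the 3 comparisons. Libraries whose number occurs once carry no weight in that fit, so it has less power than the fit reported first. Tat lost both calls, with estimates of -1.08 for BBBPH against model and -1.53 for BBBPH against control (limma adjusted p 0.231 and 0.083). Hgd lost its call in BBBPH against control (0.0538), and Kynu its call in that comparison. Afmid, Kmo and Hgd lost theirs in model against control. Over the 3 pairs of equal number, the block gave log2 ratio differences of -1.66 and -1.85 for Acmsd to Qprt in model and BBBPH against control. In BBBPH against control it gave 0.46 for Kmo to Kynu and -1.77 for Tat to Hpd. The exact permutation p was 0.25 for each, the smallest that 3 pairs allow, so this test could not pass whatever the values. BBBPH against model had too few pairs. Signs turned in estimates that passed no test, and the cause was not tested. In BBBPH against control these were Kmo (-0.13 median-ratio, -0.02 quantile, -0.03 library weights, -0.07 to 0.10 with 1 library left out), Tdo2 (0.01 quantile), Nr3c1 (-0.02) and Fah (-0.06, both median-ratio), and under the block Afmid (0.16), Haao (0.01) and Hpd (0.03). In BBBPH against model they were Haao (0.01 with the first digit of the number as a block, -0.13 to 0.02 with 1 library left out), Hpd (-0.01 without model 1_4 and BBBPH 2_2, -0.01 without control 2_1 too, -0.03 to 0.19 with 1 left out) and the Acmsd to Qprt ratio (0.0049 with no pseudocount, -0.20 to 0.07 with 1 left out). In model against control they were Tdo2 (-0.03 median-ratio), Haao (0.01 block), Ido2 (-0.06 median-ratio, -0.07 quantile, -0.15 to 0.18 with 1 left out), Qprt (-0.11 median-ratio, -0.09 quantile, -0.02 library weights, -0.004 block, -0.02 without 2 and -0.02 without 3 libraries, -0.09 to 0.10 with 1 left out) and Fah (0.03 block, 0.01 without 2 and 0.01 without 3 libraries, -0.13 to 0.01 with 1 left out). The Kmo to Kynu ratio in model against control lay between -0.25 and -0.13 with 1 library left out. Depth limits Acmsd most, at 102 to 253 fragments in the diet groups.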
